A study of Mus musculus with 82 samples.

Results

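The genes described here are 9 markers of fibroblast progenitors of the adventitia, the outer coat of the aorta: Scara5, Pi16, Cd34, Ly6a, Dpt, Lrrc17, Serpinf1, Ngfr and Gsn. They are 9 of the 55401 genes listed in the count tables of mouse aortic vascular smooth muscle cells (aVSMC), and they were taken by symbol from those tables. The members were chosen by their counts in these same libraries, namely by the lower level of several of them wherever U46619 had been added. Every comparison of an incubation with U46619 against one without it is therefore given below as a description with no p-value. All 9 genes passed the filter on low counts at both time points, among 14528 genes that did, but the mean of Ngfr stayed under 5 FPM in every group of 24 h. FPM are counts scaled to a common library size.

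aVSMC were isolated from wildtype C57BL/6 mice, grown with serum, insulin, EGF and hydrocortisone for up to 7 passages, kept without serum or supplements for 24 h and then incubated, and their mRNA was sequenced in 82 libraries. After 24 h there were 42 libraries, 6 mice in each of 7 groups: control, 10 µg/L EGF, 10 nM AngII, 1 µM U46619, EGF with AngII, EGF with U46619, and the 3 substances together. After 48 h there were 40 libraries in 2 batches of 5 culture sets each, one batch with control, EGF, U46619 and EGF with U46619 (the EGF/U46619 batch), the other with control, EGF, AngII and EGF with AngII (the EGF/AngII batch). By the labels, sets 1 and 4 of the EGF/U46619 batch are both from mouse 7, as are replicates 1, 2 and 5 of the EGF/AngII batch. Set 5 of the EGF/U46619 batch and replicate 4 of the EGF/AngII batch are both labelled mouse 10. The n of 48 h therefore counts culture sets, not animals. EGF activates its receptor EGFR, AngII acts on the angiotensin receptor AT1R, and U46619 is a stable mimetic of thromboxane that activates the thromboxane receptor TP; the study asked how these receptors act on the aVSMC transcriptome alone and together. The libraries held between 16483529 and 20818809 counts (median 19695633) after 24 h and between 19936925 and 33916114 (median 25922414) after 48 h.

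The adventitia holds fibroblasts, resident progenitors, nerves and small vessels around the muscular media. Progenitor-like adventitial fibroblasts are known for surface proteins such as CD34 and Sca-1 (encoded by Ly6a), for the peptidase inhibitor PI16 and for matrix proteins, and they can give rise to activated, contractile fibroblasts after injury. None of these markers belongs to a single cell type: Cd34 is also a classical gene of endothelial cells, Ngfr of Schwann cells, and Gsn of many contractile and motile cells. In bulk libraries such as these, fewer cells of a type and less RNA per cell cannot be told apart.

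The members lie apart from each other in the genome (GRCm38, coordinates of GENCODE vM21). Cd34 (chr1:194938819-194961279, forward strand) and Dpt (chr1:164796644-164824266, forward) share a chromosome, as do Serpinf1 (chr11:75409769-75422701, reverse) and Ngfr (chr11:95568818-95587735, reverse). Scara5 lies at chr14:65666403-65764826 (forward), Pi16 at chr17:29317680-29330593 (forward), Ly6a at chr15:74994877-74998031 (reverse), Lrrc17 at chr5:21543559-21575904 (forward) and Gsn at chr2:35256380-35307892 (forward). Counts were summed over the exons of each gene. Reads could be shared with near-identical genes most for Ly6a, where 6.33% of the 75-base words of its transcripts also stand in Ly6c1 or Ly6i. For the other 8 members this share was at most 2.38% (Pi16). Antisense genes overlap 4.46% of the exon bases of Lrrc17, 3.49% of those of Pi16 and 2.03% of those of Cd34, and without strand their reads cannot be told apart from those of the member.

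Promoter sequences were at hand for 7 of the 9 members in the RefSeq table of build GRCm38.p6, all but Scara5 and Ly6a. Of these, 4 are shown, the 250 bases before the RefSeq start written 5′ to 3′ on the gene's own strand: Lrrc17 and Pi16, as examples of windows with no match to a searched motif, and Dpt and Ngfr, which hold a match to a searched motif. The RefSeq start lies 1202 bases inside the gene as given above for Pi16, 37 for Ngfr and 19 for Dpt, and 32 bases before it for Lrrc17. Capitals mark the matches, an 8-letter C/EBP motif in Dpt and GC boxes in Ngfr, on either strand.
Lrrc17 (chr5:21543277-21543526, forward): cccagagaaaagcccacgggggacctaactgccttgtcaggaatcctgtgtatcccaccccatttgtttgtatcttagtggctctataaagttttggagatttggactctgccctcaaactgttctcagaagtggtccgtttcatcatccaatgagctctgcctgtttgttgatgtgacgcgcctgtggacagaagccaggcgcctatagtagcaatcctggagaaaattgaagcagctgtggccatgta
Pi16 (chr17:29318632-29318881, forward): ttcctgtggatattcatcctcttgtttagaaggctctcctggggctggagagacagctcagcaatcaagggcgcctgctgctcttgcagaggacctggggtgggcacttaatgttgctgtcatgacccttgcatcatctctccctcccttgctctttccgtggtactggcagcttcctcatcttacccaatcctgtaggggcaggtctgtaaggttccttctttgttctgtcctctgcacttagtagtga
Dpt (chr1:164796413-164796662, forward): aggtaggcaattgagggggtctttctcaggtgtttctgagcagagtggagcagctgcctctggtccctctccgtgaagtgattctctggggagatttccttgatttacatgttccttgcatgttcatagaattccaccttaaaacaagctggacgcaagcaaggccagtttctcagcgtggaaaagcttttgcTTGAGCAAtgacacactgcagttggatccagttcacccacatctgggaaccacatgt
Ngfr (chr11:95587699-95587948, reverse): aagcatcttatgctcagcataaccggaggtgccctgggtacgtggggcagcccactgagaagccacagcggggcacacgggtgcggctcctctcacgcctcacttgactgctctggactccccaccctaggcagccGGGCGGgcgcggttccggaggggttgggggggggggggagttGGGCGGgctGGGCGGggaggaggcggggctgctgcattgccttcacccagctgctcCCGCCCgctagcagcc
Both strands were searched for AP-1 (TGANTCA), TEAD (GGAATG), FOXO (GTAAACA), the GC box (GGGCGG), C/EBP (TTGCNNAA) and the CArG box. Of all 32851 promoters of the table, 6.75% held the AP-1 letters, 12.64% the TEAD, 3.17% the FOXO, 32.74% the GC box, 9.56% the C/EBP and 1.47% the CArG box. Dpt held 1 match, to C/EBP, 57 to 50 bases before its start. Ngfr held 4 GC boxes in a window of 70.4% GC, and each of the 3 annotated Gsn promoters held at least 1 GC box. None of these letters stood in the windows of Cd34, Lrrc17, Pi16 or Serpinf1, and no match was common to all 7 members.

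Parts of the tables hold no counts at all. Every gene of chromosomes 9, X, Y and MT (7075 genes) was at 0 in all 82 libraries, and so were the 657 genes of chromosome 8 that start beyond base 97876154. None of the 9 members lies there, but 8 of the 103 listed marker genes do, among them Tagln and Cnn1 of smooth muscle and Cdh5 of endothelium, so their 0 says nothing about the cells.

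After 24 h, libraries of 1 mouse resembled each other across incubations in all 42 cases. After 48 h, 1 library went against its label. The library labelled control, replicate 4 of the EGF/AngII batch held Scara5 at 4.05 FPM, whereas the EGF, AngII and EGF with AngII libraries of its set held it at 521.5, 493.4 and 551.2 FPM. Its Cd34 was 468.6 FPM against 56.8, 64.5 and 56.2 FPM, and its Gsn was 598.7 FPM against 8395, 7590 and 7793 FPM. Its deviations from the group means correlated with its own set at −0.28 and with set 2 of the batch at 0.86, and its levels of these genes were close to those of the EGF, AngII and EGF with AngII libraries of set 2. In the control of set 2, Scara5 was 22.3 FPM and Ngfr 53.7 FPM, against 2.53 to 5.68 FPM and 2.39 to 3.69 FPM in the rest of that set. This control correlated with its own set at 0.54, more than with any other set, and its Scara5 was far below that of the other 3 libraries of set 4. All libraries were kept in the groups of their labels, and whether labels were exchanged is not settled here. After 48 h the members against control are given with and without the library labelled control 4, and the other marker lists only with it.

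Before any incubation effect, the control cultures of the 6 mice differed by more than 10 times in 5 of the members (Scara5, Pi16, Cd34, Dpt and Ngfr), and Lrrc17 ranged from 1 count to 468. Scara5, a ferritin-binding scavenger receptor, was 1.90 FPM at its lowest, 28.4 FPM at the median and 133.3 FPM at its highest, a 70.1-fold span. Dpt, which encodes the matrix protein dermatopontin, ranged 287-fold, from 0.61 FPM through a median of 24.7 FPM to 174.9 FPM. Cd34, a sialomucin of progenitor and endothelial cells, ranged 40.8-fold, from 5.57 FPM (median 53.8 FPM) to 227.1 FPM. The narrowest spans were those of Serpinf1 (5.40-fold) and Ly6a (6.62-fold). Per length, the order of the control means was Gsn at 1420 ± 775 FPKM, Serpinf1 at 907 ± 764, Ly6a at 207 ± 106, Dpt at 28.1 ± 38.02, Cd34 at 9.98 ± 10.9, Scara5 at 8.12 ± 8.81, Lrrc17 at 3.08 ± 2.62, Pi16 at 1.26 ± 1.10 and Ngfr at 1.15 ± 1.67 FPKM (SD, n = 6). FPKM are FPM divided by the exon length in kilobases. Of the neighbours in this order only Ly6a and Dpt lay further apart than the larger of their SD.

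The high and low mice were not the same for the different members. Mouse 1 had the highest control level of Scara5, Serpinf1 and Ngfr but the lowest of Cd34 and Ly6a. Mouse 2 was highest for Pi16, Lrrc17 and Gsn, mouse 3 for Ly6a and Dpt, and mouse 6 for Cd34, while mouse 6 was lowest for Pi16, Dpt and Gsn. Across the 42 libraries of 24 h, the correlation between pairs of members (log2 FPM) ran from −0.65 (Ly6a and Serpinf1) to 0.66 (Cd34 and Ly6a), as a description, since libraries share mice.

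**Figure D1:**
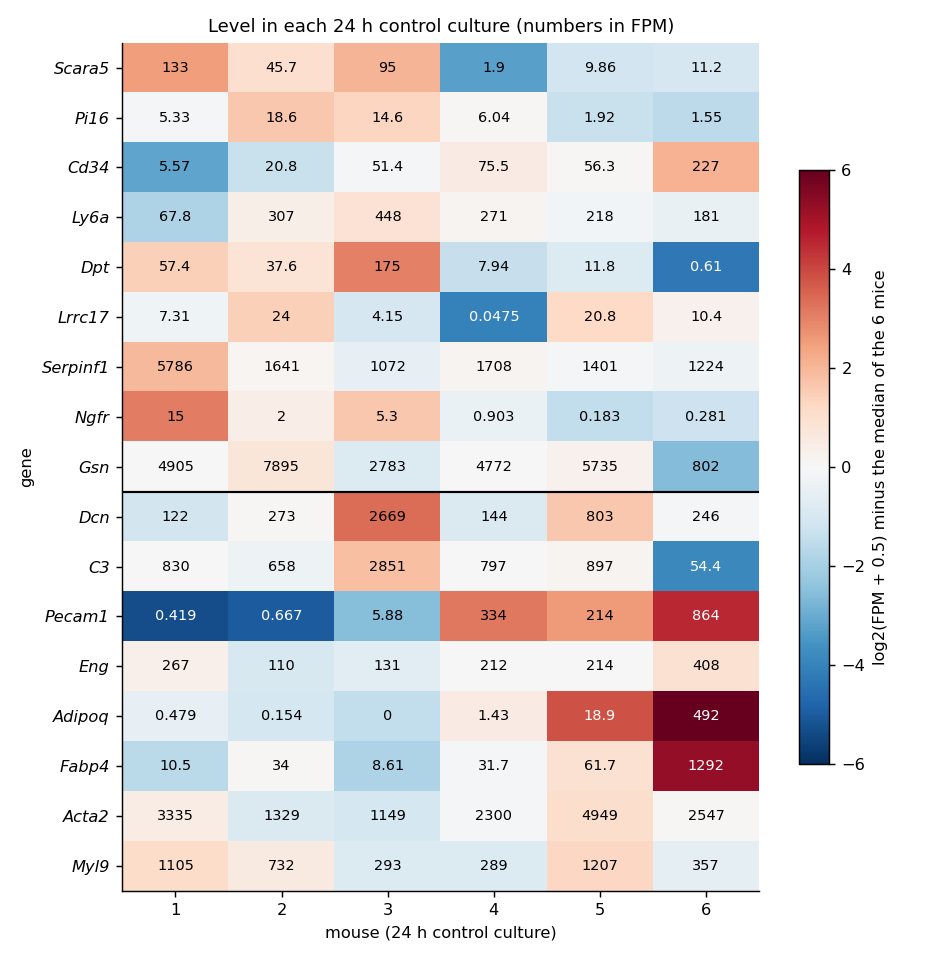
Level of the 9 members (above the line) and of markers of other cells (below) in the control culture of each of 6 mice after 24 h. Colour shows log2(FPM + 0.5) minus the median of the 6 mice and the number in each cell is the FPM; Cd34 is highest where Pecam1 is highest (mouse 6), and no mouse is high in all members.

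Markers of other cells also varied between the control cultures. Pecam1, the endothelial adhesion molecule, was 0.419, 0.667, 5.88, 334.5, 214.3 and 864.3 FPM in mice 1 to 6, and Emcn, endothelial endomucin, was 0, 0, 1.94, 80.0, 66.2 and 597.7 FPM. Cd34 in the same cultures was 5.57, 20.8, 51.4, 75.6, 56.3 and 227.1 FPM, so that it was lowest in the 3 cultures nearly free of Pecam1 and highest in the culture with most of it. Adipoq, the adipocyte hormone adiponectin, reached 491.9 FPM in mouse 6 and at most 18.9 FPM in the others. Mouse 3 had the highest levels of C3 (2851 FPM), the complement component, and of Dcn (2669 FPM), the proteoglycan decorin, both abundant in fibroblasts, and the lowest Acta2 (1149 FPM), smooth muscle actin. Acta2 was 1149 to 4949 FPM and Myh11, the smooth muscle myosin heavy chain, 2.68 to 90.9 FPM in the 6 controls. Of other genes linked to adventitial progenitors, Pdgfra was at 278.1 ± 123.3 FPM and Dpp4 at 0.361 ± 0.448 FPM (SD, n = 6). The part of these other cell types in the levels of the members was not tested.

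U46619 for 24 h came with a lower level of all 9 members on average, and 7 of the 9 were differentially expressed genes (DEG): Scara5, Pi16, Cd34, Ly6a, Dpt, Lrrc17 and Gsn. DEG had to reach an FDR below 0.05 by edgeR as well as by DESeq2, and 5 FPM or more on average in either group. Of all genes tested, 13.9% were DEG and lower with U46619. As the list was chosen with this fall known, the count describes the list and nothing is read from it. The median log2-fold change of the members was −1.47 and that of all tested genes −0.06. Without the mouse in the model no member was a DEG (2.75% of all genes then were DEG and lower).

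Among these DEG, Scara5 and Lrrc17 had the largest differences. Scara5 was 0.450 FPM at the lowest, 1.84 FPM at the median and 27.2 FPM at the highest with U46619. The 6 cultures overlapped with the controls because of mouse 3, the only one above 3 FPM with U46619, and because of mouse 4, whose control was low. Within each mouse Scara5 was lower with U46619, by 63.8, 28.6, 3.49, 4.23, 11.1 and 3.77 times in mice 1 to 6, and its log2-fold change was −3.29 ± 0.50. Errors of log2-fold changes from the fit are standard errors throughout, and those of FPM and of changes within cultures are SD. Lrrc17, a secreted leucine-rich repeat protein, was 0.0475 to 24.0 FPM in controls (median 8.83 FPM) and 0 to 3.26 FPM with U46619 (median 0.614 FPM). In mouse 4 it was at 1 count in the control and at 0 with U46619, so that culture gives no fold. In the other 5 mice it was 8.40, 36.4, 7.32, 66.2 and 3.17 times lower, and the groups did not overlap once mouse 4 was set aside. Its log2-fold change was −3.48 ± 0.55, which placed it 11th of 14528 genes from the most lowered, with Ngfr 15th and Scara5 18th.

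The surface markers Cd34, Ly6a and Pi16 differed less than Scara5, and unequally between mice. Cd34 was 0.330 to 158.5 FPM with U46619 (median 29.1 FPM), overlapping with the controls. It was 63.1 times lower in mouse 2 (20.8 FPM in the control, 0.330 FPM or 6 counts with U46619) and 4.57 times lower in mouse 1, but 1.80, 1.44, 1.90 and 1.43 times lower in mice 3 to 6. The first 2 mice were those with the least Pecam1 in their control. Its log2-fold change was −1.47 ± 0.47. Ly6a, the surface protein Sca-1, was 67.8 to 448.5 FPM in controls (median 244.7 FPM) and 39.0 to 370.2 FPM with U46619 (median 112.4 FPM), with overlapping groups, but it was 1.21 to 3.91 times lower in each of the 6 mice (log2-fold change −0.95 ± 0.22). Pi16, a peptidase inhibitor held at the cell surface, was 1.55 to 18.6 FPM in controls (median 5.68 FPM) and 0.551 to 7.01 FPM with U46619 (median 1.40 FPM). It was 5.74 and 33.8 times lower in mice 1 and 2, between 1.21 and 2.08 times lower in mice 3 to 5, and not lower in mouse 6, where it was 1.55 FPM in the control and 1.86 FPM with U46619. Its log2-fold change was −1.47 ± 0.51, and the call of Pi16 was lost without mouse 1, 2 or 5 and that of Cd34 without mouse 1. Ngfr, the low-affinity neurotrophin receptor, was 0.183 to 15.0 FPM in controls (median 1.45 FPM) and 0 to 1.10 FPM with U46619 (median 0.132 FPM, 3 of 6 libraries at 3 counts or fewer). Its log2-fold change was −3.42 ± 0.94, and it missed the 5 FPM asked of a DEG.

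Among the matrix and secreted proteins, Dpt was 0.452 FPM at the lowest, 8.95 FPM at the median and 116.8 FPM at the highest with U46619, within the range of the controls except for the lowest culture. It was lower in each of the 6 mice, by 1.19 to 5.12 times (log2-fold change −1.09 ± 0.29). Serpinf1, the secreted factor PEDF, was the member with the least change. It was 1072 to 5786 FPM in controls (median 1521 FPM) and 727.2 to 2644 FPM with U46619 (median 1516 FPM). The groups overlapped almost wholly, 4 of 6 mice were lower, and the log2-fold change was −0.33 ± 0.18. Gsn, which encodes the actin-severing protein gelsolin, was 801.5 to 7895 FPM in controls (median 4838 FPM) and 806.9 to 2876 FPM with U46619 (median 1714 FPM). Mice 1 to 5 all had less with U46619, by 1.62 to 4.62 times, and mouse 6, the one with least Gsn, had 801.5 and 806.9 FPM. Its log2-fold change was −1.06 ± 0.23.

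**Figure D2:**
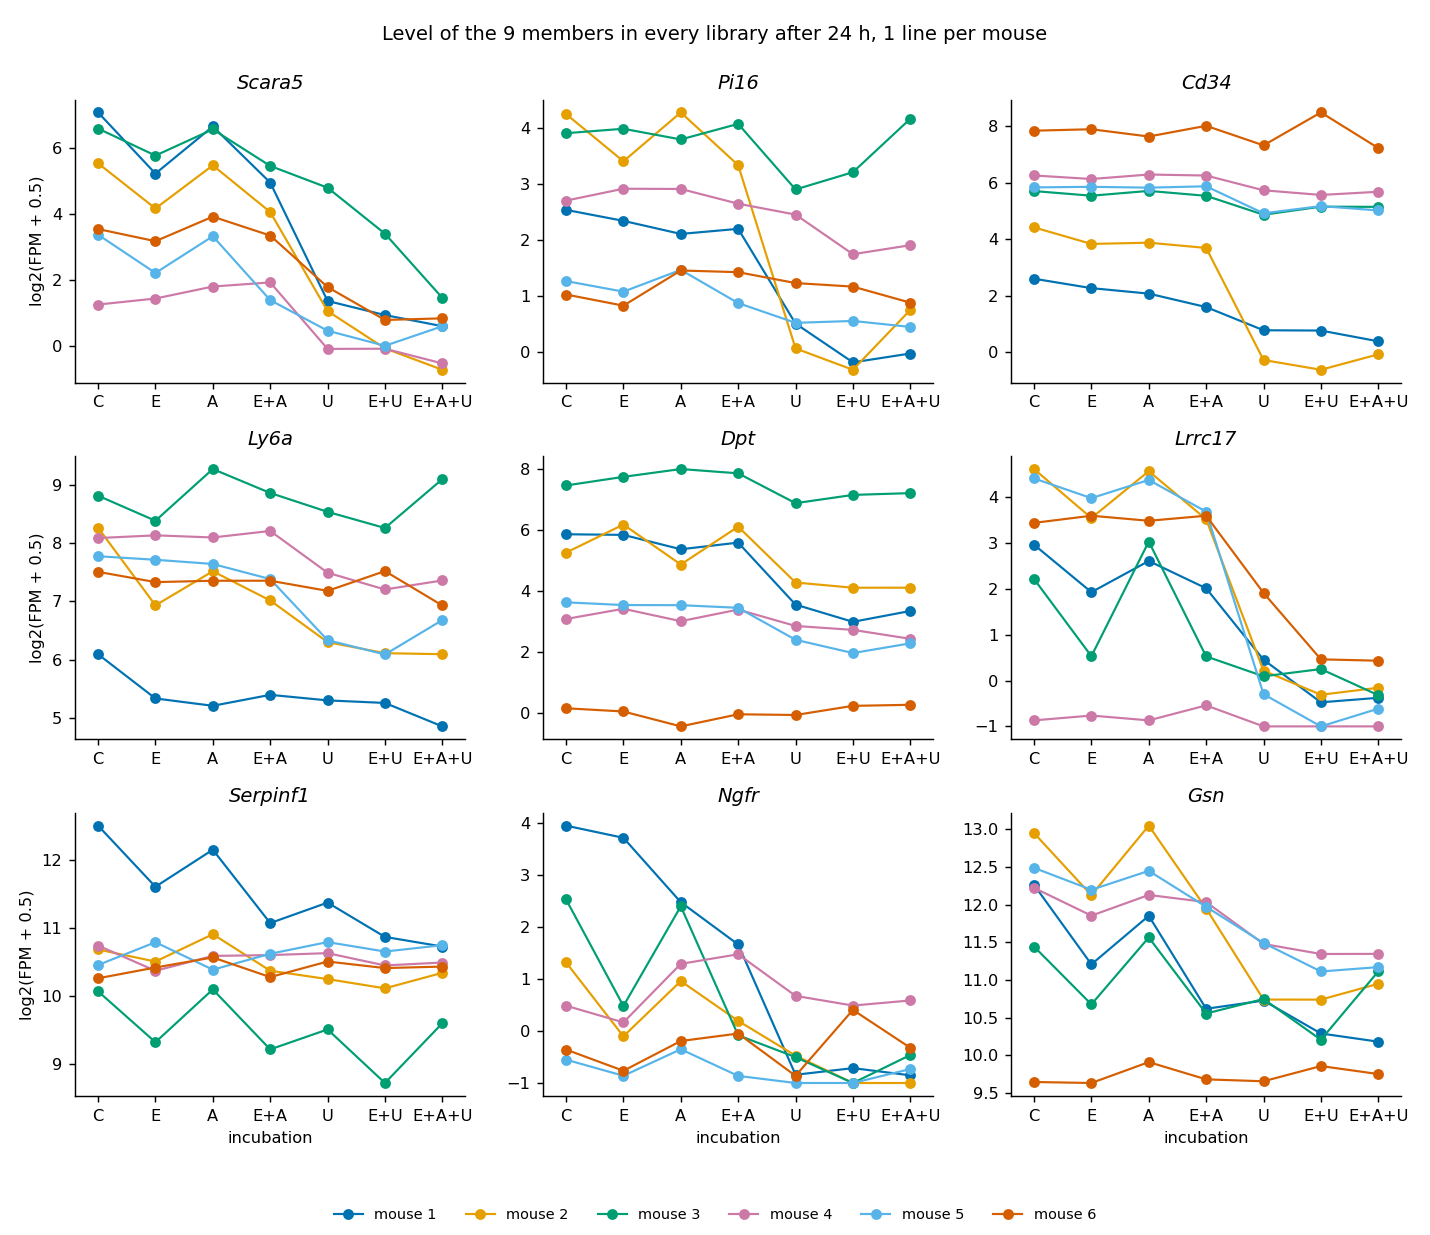
Level of each member, log2(FPM + 0.5), in the 7 incubations of 24 h, with 1 line per mouse (C control, E EGF, A AngII, U U46619). The lines of single mice lie far apart for Cd34 and Dpt in all incubations, and those of Scara5 and Lrrc17 are lowest in the 3 incubations with U46619.

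The members did not change by a common factor within a culture. With U46619, the log2 change against the control of the same mouse ran from −5.69 (Scara5) to −0.79 (Ly6a) in mouse 1, from −4.68 (Cd34) to −0.43 (Serpinf1) in mouse 2 and from −3.04 (Ngfr) to −0.28 (Ly6a) in mouse 3. In mice 4, 5 and 6 it ran from −1.34 (Scara5), −4.71 (Lrrc17) and −1.75 (Scara5) to 0.19 (Ngfr), 0.34 (Serpinf1) and 0.25 (Serpinf1). All 9 members were lower in mice 1 to 3, 8 in mice 4 and 5, and 6 in mouse 6. The median over the members was −2.03, −2.21, −0.84, −0.25, −0.996 and −0.33 in mice 1 to 6. Mice 1 and 2, with the largest differences, had almost no Pecam1, and mouse 6, with the most endothelial and adipocyte RNA, was among those with the smallest. Mouse 4, with the smallest median, had 334.5 FPM of Pecam1, while mouse 3, with 5.88 FPM, had a smaller median difference than mouse 5, with 214.3 FPM. This relation was not tested.

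**Figure D3:**
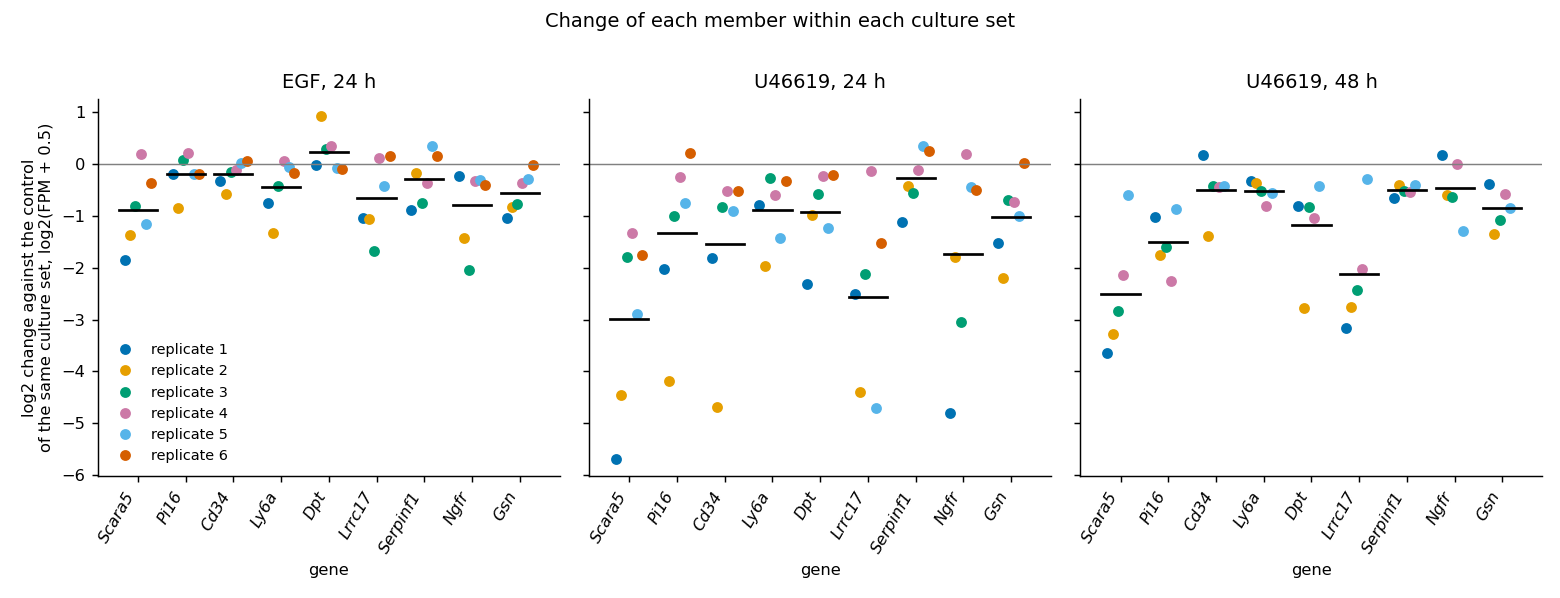
Change of each member against the control of its own culture set, on log2(FPM + 0.5), with EGF and U46619 after 24 h (6 mice) and with U46619 after 48 h (5 culture sets of the EGF/U46619 batch). Points are culture sets and bars their mean; with U46619 the mean ran from −2.99 (Scara5) to −0.28 (Serpinf1) after 24 h.

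With EGF and U46619 for 24 h, 7 members were DEG and lower (15.8% of all genes), Serpinf1 (−0.61 ± 0.19) taking the place of Cd34 (−1.08 ± 0.47). With the 3 substances together, 7 members were DEG and lower (15.7% of all genes), the same 7 as with U46619 alone. Scara5 was 0.453 to 10.1 FPM with EGF and U46619 (median 0.877 FPM) and 0.114 to 2.26 FPM with the 3 substances (median 1.03 FPM), with log2-fold changes of −4.41 ± 0.54 and −5.04 ± 0.57. Lrrc17 was 0 to 0.879 FPM and 0 to 0.850 FPM, with log2-fold changes of −4.72 ± 0.61 and −4.997 ± 0.626. These contrasts share their control libraries with that of U46619 alone. Against EGF alone, 5 members were DEG and lower with EGF and U46619 (Scara5, Pi16, Dpt, Lrrc17 and Gsn; 6.14% of all genes), and Scara5, Dpt and Lrrc17 were the 3 left without mouse 1, 2, 4 or 5.

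The comparisons without a difference in U46619 were tested. They share control or U46619 libraries with the contrasts that chose the members, so their tests are not independent of that choice. EGF alone for 24 h made none of the 9 members a DEG, where 0.0138% of all genes were DEG and lower. None passed in edgeR alone or in DESeq2 alone either, where 4 and 270 genes passed in either direction. At an unadjusted p under 0.05, 3 members were lower in edgeR and 3 in DESeq2, where 9.82% and 10.4% of all genes were. Scara5 was 2.23 to 53.7 FPM with EGF, and lower than the control in 5 of 6 mice, with a log2-fold change of −1.13 ± 0.44 (edgeR FDR 0.168). Gsn was 794.2 to 4689 FPM with EGF and lower in 6 of 6 mice (−0.60 ± 0.23, edgeR FDR 0.159). Ly6a was lower in 5 of 6 mice (−0.49 ± 0.22, edgeR FDR 0.227). Dpt went the other way on average (0.24 ± 0.28, edgeR FDR 0.678), with 3 of 6 mice lower.

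With AngII alone, the log2-fold changes of the members lay between −0.36 (Ngfr) and 0.09 (Lrrc17). No member was a DEG (0% of all genes in either direction), and none was under an unadjusted p of 0.05 in edgeR or in DESeq2 (0.427% of all genes in both tools). Those furthest from 0 were −0.36 ± 0.76 for Ngfr and −0.29 ± 0.22 for Ly6a (edgeR FDR 1). With EGF and AngII together, where 1.59% of all genes were DEG and lower, no member passed in both tools, while 4 were lower at an unadjusted p under 0.05 in edgeR and 5 in DESeq2, where 13.5% and 14.2% of all genes were. Gsn passed in DESeq2 alone (FDR 0.0233, edgeR FDR 0.0580, log2-fold change −0.75 ± 0.23). It was 821.1 to 4187 FPM, lower than the control in 5 of 6 mice, and passed in both tools without mouse 6. Adding EGF to U46619, AngII to EGF, or AngII to EGF with U46619 gave no DEG among the members or among all genes (0% each). By edgeR and DESeq2 alike, 1 member (Scara5, −1.12 ± 0.52, edgeR FDR 1) was under an unadjusted p of 0.05 when EGF was added to U46619 (2.5% of all genes in both tools). None was with AngII added to EGF (0.434% of all genes in both tools) or AngII added to EGF with U46619 (5.2%).

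Of 30 other adventitial fibroblast genes, 26 were tested after 24 h of U46619. Of these, 13 were DEG and lower (13.9% of all genes) and none higher (12.9% of all genes), with a median log2-fold change of −1.20. Tnxb, the matrix protein tenascin-X, was 228.1 ± 151.5 FPM in controls and 33.6 ± 26.3 FPM with U46619 (log2-fold change −2.67 ± 0.39). C3 was 1015 ± 950 FPM and 470.4 ± 426.2 FPM (−1.04 ± 0.30), Dcn 709.5 ± 992.0 FPM and 376.7 ± 610.9 FPM (−1.40 ± 0.56), and Pdgfra, the receptor that marks fibroblasts, 278.1 ± 123.3 FPM and 130.3 ± 29.7 FPM (−0.98 ± 0.21; SD, n = 6). Other genes of the same list were not DEG, with log2-fold changes near 0: Cd248 was at 0.04 ± 0.19, Mfap5 at −0.09 ± 0.20 and Fbn1, fibrillin-1, at 0.03 ± 0.28. Lum, the proteoglycan lumican, was not a DEG with U46619 (−1.24 ± 0.60) but was with EGF and U46619 (−2.70 ± 0.66). With EGF and U46619, 14 of the 26 were DEG and lower (15.8% of all genes). With EGF and AngII it was 2 of the 26 (1.59% of all genes), C3 (−1.04 ± 0.30, edgeR FDR 0.0480) and Serping1, an inhibitor of complement (−1.41 ± 0.33, edgeR FDR 0.0367).

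Of 12 smooth muscle genes tested, 5 were DEG and higher (12.9% of all genes) and 0 lower (median 0.50). The list did not move as a whole, as 4 of the 12 had a log2-fold change below 0. Acta2 was 1149 to 4949 FPM in controls and 4293 to 14750 FPM with U46619, higher in each of the 6 mice (2.05 ± 0.39), and Actg2, enteric smooth muscle actin, was 2.68 ± 0.42 higher. Myl9, a myosin light chain, was 663.7 ± 416.2 FPM in controls and 1159 ± 640 FPM with U46619 (0.87 ± 0.28). With EGF and U46619, 3 were DEG and higher (16.3% of all genes) and 2 lower (15.8%).

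Of 10 endothelial genes tested, 0 were DEG and lower (13.9% of all genes) and 1 was DEG and higher (12.9%), Flt1 (a VEGF receptor, 1.60 ± 0.26). Their summed level was 302.6, 125.9, 235.8, 1200, 872.9 and 2998 FPM in the controls of mice 1 to 6 and 416.5, 153.6, 266.3, 1128, 942.9 and 2609 FPM with U46619, a mean log2 change of 0.12 ± 0.24 (SD, n = 6), while over the 10 genes the median log2-fold change was −0.30 with 7 below 0. The sum over the 9 members in the same cultures was 10980, 9991, 4649, 6843, 7455 and 2458 FPM in controls and 4394, 3025, 2997, 4676, 4762 and 2571 FPM with U46619, most of it Gsn and Serpinf1. Pericyte genes had 2 of 6 DEG and lower (13.9% of all genes): Rgs5, a regulator of G protein signalling (−2.39 ± 0.45), and Notch3 (−1.27 ± 0.32). Pdgfrb, the most abundant of them, was 613.3 ± 140.0 FPM and 518.6 ± 248.8 FPM. With EGF and U46619, 3 of the 6 were DEG and lower (15.8% of all genes), and the endothelial list again had 1 higher (16.3% of all genes) and 0 lower.

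Of all genes tested, 13.9% were DEG and lower and 12.9% DEG and higher with U46619, and 15.8% and 16.3% with EGF and U46619. Among the smaller lists, S100b was the only Schwann cell gene of 2 tested to be a DEG, at 9.29 ± 10.8 FPM in controls and 1.27 ± 0.95 FPM with U46619 (−2.66 ± 0.50), while the defining Sox10 was at most 0.380 FPM in controls. Macrophage genes had 2 of 4 DEG and lower (Lyz2, lysozyme, −1.31 ± 0.23; Cd14, −0.86 ± 0.19) and 1 higher (Csf1r, a receptor of macrophage growth factors, 1.08 ± 0.23), with the leukocyte gene Ptprc at 0 in every control and U46619 library of 24 h. Adipocyte genes had 1 of 5 DEG and lower (Adipoq, −1.34 ± 0.44), a list whose sum of 2380 FPM in mouse 6 compared with 18.4 to 126.7 FPM in the other 5 controls. Fabp4, its most abundant gene, was not a DEG with U46619 (−0.26 ± 0.36), nor was Plin1 (−1.42 ± 0.52). With EGF and U46619, 4 of the 5 adipocyte genes were DEG and lower (median log2-fold change −1.97). With the 3 substances it was 3 of the 5 (15.7% of all genes). Proliferation genes had 2 of 8 DEG and higher with U46619, Cdk1 (1.17 ± 0.43) and Bub1 (1.74 ± 0.64), and 8 of 8 with EGF and U46619, among them Mki67 (2.20 ± 0.64) and Top2a (2.08 ± 0.62). The part of these cell types and of the cell cycle in the levels of the members was not tested.

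**Figure D4:**
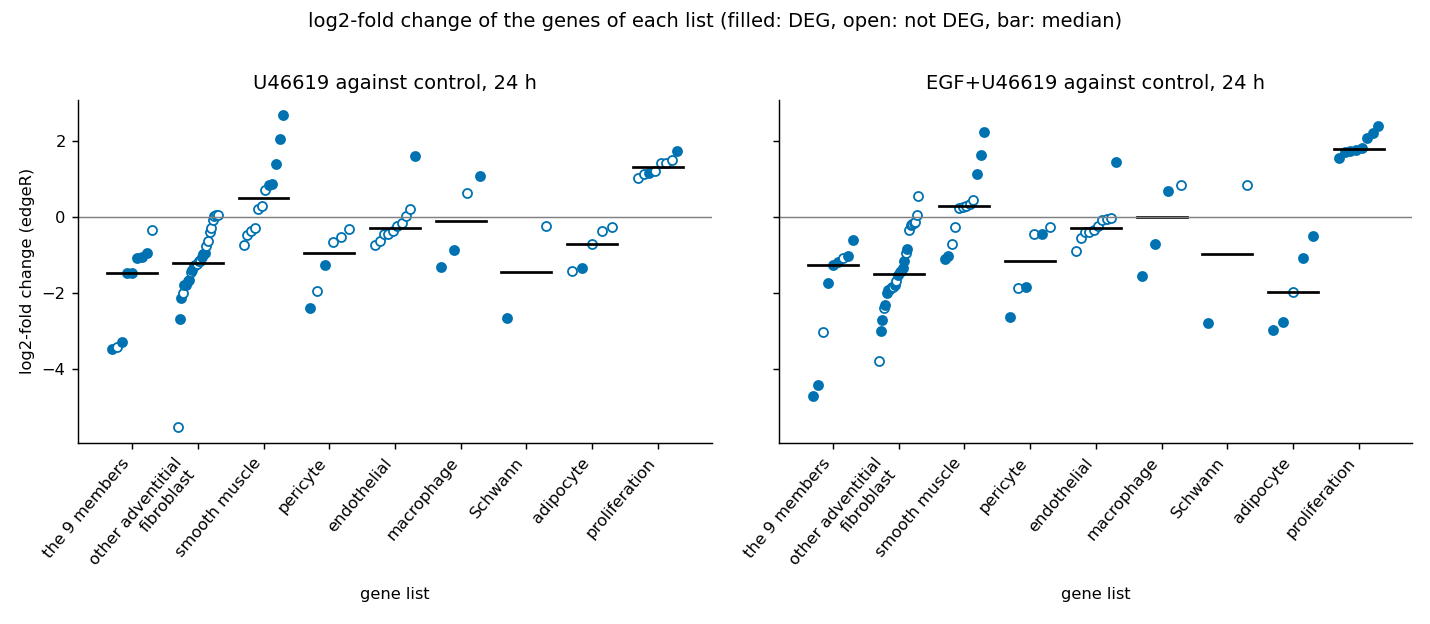
log2-fold change (edgeR) against control of each tested gene of the 9 lists after 24 h, with U46619 (left) and EGF with U46619 (right). Filled points are DEG, open points are not, and bars are list medians; with U46619 the members' median was −1.47, that of the other adventitial fibroblast genes −1.20 and that of the smooth muscle genes 0.50.

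After 48 h the number of DEG among the members with U46619 differed between the fits. Over both batches with the mouse number as labelled, 2 members were DEG and lower with U46619, Scara5 (−3.31 ± 0.78) and Pi16 (−1.58 ± 0.40), where 1.55% of all genes were. This fit had no term for the batch, and U46619 was added only in the EGF/U46619 batch, while controls came from both. Differences between the batches can therefore enter its U46619 values. Within the EGF/U46619 batch alone, with the culture set in the model, 7 members were DEG and lower (10.1% of all genes): Scara5, Pi16, Ly6a, Dpt, Lrrc17, Serpinf1 and Gsn. Over both batches with the culture set in the model and without the library labelled control 4, it was 7 as well (7.79% of all genes), with Cd34 in place of Lrrc17, whose mean was then under 5 FPM in both groups. With that library left out but the mouse number kept it was 2 (1.69% of all genes). With the culture set in the model over all libraries it was 2 (4.87% of all genes). Thus neither choice alone moved the count of members for U46619, and both together gave 7. The culture set alone did raise the share of all genes, from 1.55% to 4.87%. The fit of the EGF/U46619 batch changed the libraries and the term for the replicate at once, and the share of each in its count cannot be told apart. EGF with U46619 gave 2 members in the comparison over both batches (3.01% of all genes), 7 in the EGF/U46619 batch (12.4%) and 6 with the culture set and without control 4 (10.3%). Against EGF, EGF with U46619 gave 2 over both batches (2.2% of all genes), 4 with the culture set in the model (6.13%), 7 in the EGF/U46619 batch (7.21%) and 5 with the culture set and without control 4 (8.43%). With the mouse number over both batches the 2 were Scara5 and Pi16 in each of these comparisons, and for U46619 neither was left without set 1, 2 or 3 of the EGF/U46619 batch.

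In the EGF/U46619 batch, Scara5 was 27.8, 37.3, 27.3, 8.04 and 45.2 FPM in the controls of sets 1 to 5 and 1.75, 3.41, 3.40, 1.44 and 29.7 FPM with U46619. Sets 1 to 4 were all below their lowest control, and set 5 stayed with the controls, at 29.7 FPM, and at 55.7 FPM with EGF and U46619. Pi16 was 2.92, 24.8, 7.07, 10.8 and 7.10 FPM in controls and 1.17, 7.00, 1.98, 1.87 and 3.68 FPM with U46619. It was lower in all 5 sets, by 1.93 to 5.75 times, though the groups overlapped. Lrrc17 was 11.8, 17.7, 3.20, 3.32 and 0.229 FPM in controls and 0.877, 2.21, 0.187, 0.437 and 0.0944 FPM with U46619, the last at 2 counts. In sets 1 to 4 it was 7.60 to 17.1 times lower.

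The remaining members differed less in this batch. Gsn was 2026, 4737, 4499, 2879 and 1644 FPM in controls and 1544, 1859, 2123, 1916 and 909.7 FPM with U46619, lower in each set by 1.31 to 2.55 times. Serpinf1, which hardly differed after 24 h, was 2842, 2080, 2122, 2250 and 701.5 FPM in controls and 1812, 1577, 1472, 1551 and 527.1 FPM with U46619. Apart from set 5, which was low in both, every U46619 level of Serpinf1 lay below every control level, and the log2 change within the sets was −0.51 ± 0.10 (SD, n = 5), against −0.28 ± 0.55 (n = 6) after 24 h. The difference between the time points was not tested, since the cultures came from other mice.

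Dpt was 1.35 to 7.01 times lower and Ly6a 1.26 to 1.75 times lower across the 5 sets. Cd34 was 133.0, 35.6, 41.7, 41.4 and 110.5 FPM in controls and 150.1, 13.2, 30.7, 30.4 and 82.2 FPM with U46619, lower in 4 of 5 sets and not a DEG within the batch (−0.51 ± 0.22). Ngfr was abundant only in set 2, at 76.0 FPM in the control and 50.1 FPM with U46619, and at most 2.44 FPM in the other sets. That set was also the one with the Schwann cell genes Sox10 (30.7 FPM in the control, 21.6 FPM with U46619) and Foxd3 (9.53 and 7.64 FPM), which were at 0 in the other 4 controls. In the controls of the EGF/AngII batch, Ngfr was 96.5 and 53.7 FPM and Sox10 24.0 and 14.5 FPM in replicates 1 and 2, and Ngfr was at most 3.19 FPM and Sox10 at most 0.763 FPM in the others, replicate 2 being the control that departs from the rest of its set (Ngfr at 2.39 to 3.69 FPM there). The part of these cells in the level of Ngfr was not tested. With the same 5 sets, Acta2 was 3469, 1497, 4080, 7500 and 1647 FPM in controls and 3277, 1563, 4483, 5164 and 1099 FPM with U46619, a mean log2 change of −0.20 ± 0.34 (SD, n = 5), and the endothelial sum changed by −0.02 ± 0.14. In the fit over both batches, the median log2-fold change of the 10 endothelial genes was −1.57 with 9 below 0 and none a DEG. That fit had no term for the batch, and U46619 was added only in the EGF/U46619 batch. The endothelial sum of the controls was 619.3 ± 489.3 FPM in the EGF/U46619 batch and 1998 ± 1507 FPM in the EGF/AngII batch (SD, n = 5 each). The members' sum changed by −0.70 ± 0.17 with U46619 in the 5 sets of the EGF/U46619 batch. Over both batches, 1 of 26 other adventitial fibroblast genes (Sfrp4, a secreted Wnt modulator) and 1 of 2 Schwann genes (S100b) were DEG and lower with U46619 (1.55% of all genes), and none of the genes tested in the other lists was.

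**Figure D5:**
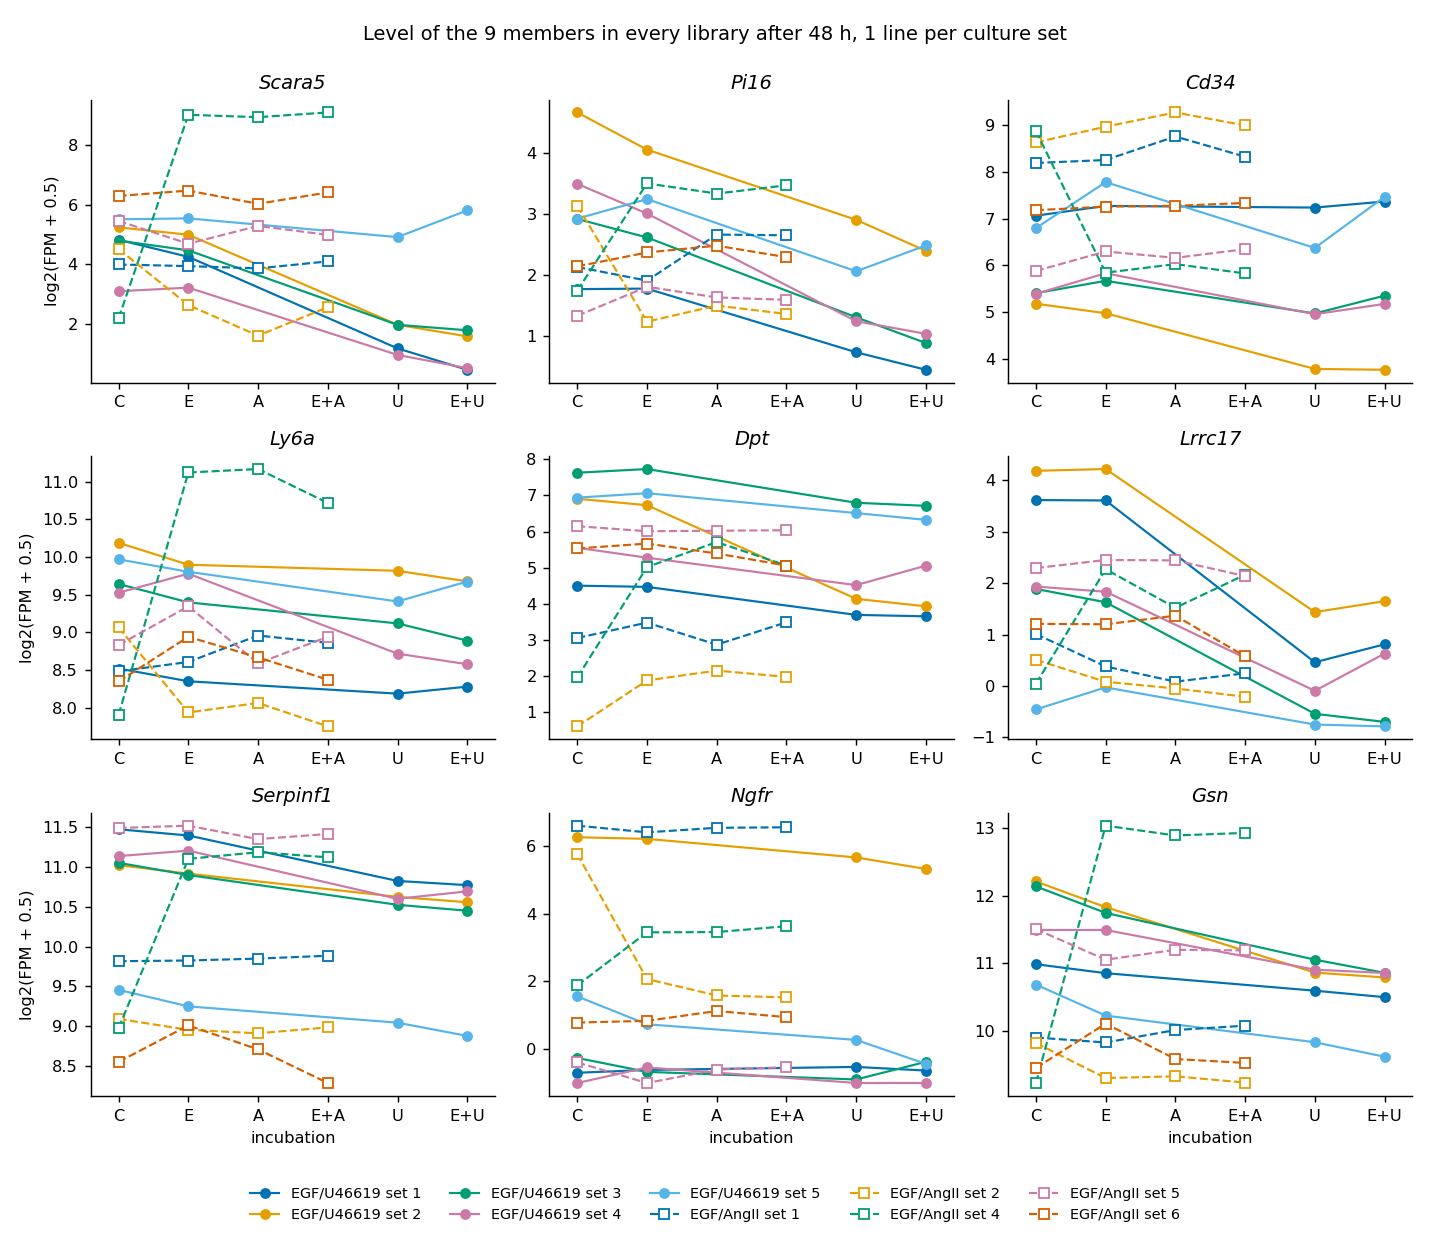
Level of each member, log2(FPM + 0.5), in the incubations of 48 h, with 1 line per culture set (filled circles and solid lines, EGF/U46619 batch; open squares and broken lines, EGF/AngII batch). The green broken line is the set with the library labelled control 4, whose control lies outside the range of its other 3 libraries in all 9 members, above it in Cd34 and below it in the others.

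Set 5 of the EGF/U46619 batch, which kept Scara5, had the least endothelial RNA of the batch (Pecam1 at 0.343 FPM in the control, against 52.7 to 440.6 FPM in sets 1 to 4) and the most C3 (2837 FPM, against 64.2 to 846.3 FPM) and Dcn (1795 FPM, against 45.8 to 507.8 FPM). In the controls of the EGF/AngII batch, Pecam1 was 882.4, 514.9, 833.3, 170.9 and 4.26 FPM in replicates 1, 2, 4, 5 and 6 and Cd34 was 291.7, 396.4, 468.6, 58.3 and 144.4 FPM, the library of replicate 4 being the one that went against its label. The part of the cell mixture in these differences was not tested.

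Without U46619, no member was a DEG after 48 h. EGF, AngII and EGF with AngII against control, and EGF with U46619 against U46619 gave 0 DEG among the members and 0% among all genes. In none of these comparisons, over both batches with the mouse number, was a member under an unadjusted p of 0.05 in edgeR or in DESeq2. Of all genes, 0.847% (EGF), 1.53% (AngII), 1.83% (EGF with AngII) and 0.324% (EGF added to U46619) were in both tools. With the culture set in the model and without control 4, the largest log2-fold changes with EGF were −1.40 ± 0.43 for Ngfr (edgeR FDR 0.357) and −0.49 ± 0.30 for Scara5 (edgeR FDR 0.778). In the same fit Ngfr was at −1.59 ± 0.53 with AngII (edgeR FDR 0.835) and −1.58 ± 0.53 with EGF and AngII (edgeR FDR 0.763), against 0.60 ± 1.36 and 0.61 ± 1.36 over all libraries with the mouse number, and no member was a DEG in either fit. These values of Ngfr rest on set 2, whose control departs from its other 3 libraries. Within that set the log2 change of Ngfr was −3.69 with EGF, −4.18 with AngII and −4.23 with both, and in replicates 1, 5 and 6 of the batch it lay between −0.61 (EGF) and 0.34 (AngII). In the fit without control 4, 1 member was under an unadjusted p of 0.05 in both tools in each comparison, where 7.31% (EGF), 4.63% (AngII), 5.57% (EGF with AngII) and 3.38% (EGF added to U46619) of all genes were. With EGF and AngII it was Lrrc17, which was lower (−0.57 ± 0.26). In the other comparisons it was Cd34, which was higher: 0.28 ± 0.13 with EGF, 0.44 ± 0.16 with AngII and 0.39 ± 0.17 with EGF added to U46619. Within the EGF/U46619 batch alone, Gsn was lower with EGF in sets 1, 2, 3 and 5 and 2879 and 2878 FPM in set 4 (−0.28 ± 0.12, edgeR FDR 0.368).

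Outside the lists, the 5 genes whose level followed the mean of the members most closely were Ggt5, Fndc10, Apod, Selenop and Smim1, of 9835 candidates with at least 5 FPM in the controls of both time points. Their Pearson correlations with the members' mean were 0.90 and 0.84 (Ggt5), 0.82 and 0.89 (Fndc10), 0.87 and 0.81 (Apod), 0.81 and 0.80 (Selenop) and 0.91 and 0.77 (Smim1) over 42 libraries of 24 h and 40 of 48 h, which share mice and incubations. Of the members, Pi16 (0.84 and 0.83) and Scara5 (0.86 and 0.78) followed this mean closely. Cd34 (0.32 and −0.27) and Serpinf1 (−0.03 and 0.36) did not. The libraries include those with U46619 by which the members were chosen, so the rule favours genes that are lower with U46619. Ggt5, a gamma-glutamyltransferase, was 18.6 to 235.2 FPM in the 24 h controls and 3.41 to 32.8 FPM with U46619. Selenop, the plasma carrier of selenium, was 372.3 to 1363 FPM and 63.0 to 603.6 FPM, and Apod, apolipoprotein D, 4.74 to 65.6 FPM and 1.98 to 9.94 FPM. Levels with U46619 overlapped with controls in each of these 3 genes.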

How the data were processed

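mRNA of aVSMC was sequenced by the authors, who aligned the reads to mm10 with HISAT2 (2.1.0) and counted them per gene with featureCounts, multi-mapping reads included, per the study's methods and the submitters' processing notes. A strand setting is not given in the sources used here. The deposited values are raw counts per gene, and 0 columns belonged to no sample.

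The 9 members and the marker lists were chosen with earlier results of these data known. Counts were fitted with edgeR (4.0.16, quasi-likelihood test, TMM, filterByExpr) and DESeq2 (1.42.0, Wald test, all genes with a count), with treatment and mouse as terms and 1 fit per time point, and p-values were adjusted by Benjamini-Hochberg over all genes tested. FPM are counts scaled to the TMM library size, set separately at each time point, and FPKM divides it by the exon length of GENCODE vM21. Within-culture changes are on log2(FPM + 0.5), which understates the change of low genes. Genes were tested at both time points if they passed the filter in both (14528). The labels give 5 mouse numbers for the 10 culture sets of 48 h, with several sets of 1 batch under 1 number. The study's methods state that every replicate came from its own mouse, so how many animals the sets stand for is not settled here.

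Named genes were the 9 members, of each other list the 2 most abundant in the 24 h controls and the 2 DEG with the largest change with EGF and U46619, and the 5 genes most like the members. Sfrp4, Serping1, Csf1r, Foxd3, Pdgfra, Cd248, Mfap5, Fbn1, Dpp4, Emcn, Myh11, Sox10 and Ptprc were named after their values were seen. 1 gene that the rule names is not reported here.

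After 24 h the labels tie each replicate number to 1 mouse. After 48 h a number marks a culture set, and the pairing rests on the correlation of its libraries. Deviations from the group means correlated at over 0.1 in 126 of 126 same-number pairs after 24 h (lowest 0.40), 30 of 30 in the EGF/U46619 batch and 27 of 30 in the EGF/AngII batch, the other 3 holding the library labelled control 4. The culture set was the block within the batches. Alternatives were DESeq2 size factors, each tool alone, no low-count filter, no FPM minimum, no mouse term, only the groups compared, culture set as block, 1 batch alone, other pseudocounts (0.1 and 2) and each replicate left out. Leaving out the library labelled control 4 was added after seeing the data. R 4.3.3, limma 3.58.1, Python 3.11.15, pandas 2.3.3, scipy 1.17.1 and matplotlib 3.10.9 were used.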

Additional observations from a re-analysis of the deposited data

Results flagged for a closer look

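In 15 of 117 groups of a member and incubation, 1 library lay far from the others (Dixon's test, 95% level), where chance alone gives about 1 in 20. After 24 h these were Serpinf1 in the control of mouse 1 (5786 FPM, others 1072 to 1708), in EGF with U46619 of mouse 3 (421.5 FPM, others 1105 to 1865) and with the 3 substances in mouse 3 (774.6 FPM, others 1294 to 1714). Ngfr stood apart with EGF in mouse 1 (12.7 FPM, others up to 0.898) and with U46619 in mouse 4 (1.10 FPM, others up to 0.220), Scara5 with EGF and U46619 in mouse 3 (10.1 FPM, others up to 1.43) and Lrrc17 with AngII in mouse 4 (0.0476 FPM or 1 count, others 5.60 to 23.2).

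After 48 h, set 5 of the EGF/U46619 batch stood apart for Scara5 with U46619 (29.7 FPM, others up to 3.41) and with EGF and U46619 (55.7 FPM, others up to 2.94), for Serpinf1 in the same incubations (527.1 and 469.6 FPM, others at least 1472 and 1398) and for Gsn with EGF and U46619 (784.0 FPM, others at least 1445). Set 2 of that batch stood apart for Ngfr with U46619 (50.1 FPM, others up to 0.708) and with EGF and U46619 (39.5 FPM, others up to 0.271), and set 4 of the EGF/AngII batch for Ly6a with AngII (2299 FPM, others 266.7 to 496.5).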

How the results depend on the processing

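No called member reversed its direction under the alternatives run. Of the counts of members called, 273 alternatives kept the count within 1.5 times and 36 moved it further; the cause was not tested. Without the replicate block of the mouse, the counts for U46619, EGF with U46619, the 3 substances, and EGF with U46619 against EGF after 24 h fell to 0, 3, 2 and 0 (2.75%, 5.1%, 5.58% and 0.241% of all genes DEG and lower), and those of 48 h to 0, 0 and 0 (0.145%, 0.385% and 0.206%). With only the groups compared they were 5, 4, 2 and 3 after 24 h (15.9%, 12.2%, 5.81% and 5.76% of all genes) and 0, 0 and 0 after 48 h (0.794%, 1.6% and 0.00708%), where fewer libraries enter. For EGF with AngII after 24 h, DESeq2 alone and no filter on low counts each gave 1 (Gsn). After 48 h, with the culture set as replicate block the count for EGF with U46619 against EGF was 4 (6.13% of all genes). The EGF/U46619 batch alone with culture set as replicate block gave 7, 7 and 7 for U46619, EGF with U46619, and EGF with U46619 against EGF (10.1%, 12.4% and 7.21%). Leaving out the library labelled control 4 with that block, an alternative added after seeing the data, gave 7, 6 and 5 (7.79%, 10.3% and 8.43%).

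With each replicate left out in turn, the counts after 24 h ranged from 5 to 7 (U46619), 5 to 8 (EGF with U46619), 4 to 7 (the 3 substances, 4 without mouse 1), 3 to 6 (EGF with U46619 against EGF, 3 without mouse 1, 2, 4 or 5) and 0 to 1 (EGF with AngII, 1 without mouse 6). After 48 h they ranged from 0 to 3 (U46619, 0 without set 1, 2 or 3 and 1 without set 4 of the EGF/U46619 batch), 2 to 3 (EGF with U46619) and 0 to 3 (EGF with U46619 against EGF, 0 without set 3). The share of all genes DEG and lower then ranged from 8.87% to 15.8% with U46619 after 24 h and from 0.324% to 2.23% after 48 h. In the other 24 h comparisons its lowest and highest values were 11.6% and 16.8% (EGF with U46619) and 12.5% and 17.9% (the 3 substances). For EGF with U46619 against EGF they were 2.41% and 8.42%. The 48 h limits were 1.12% and 3.76% (EGF with U46619), and 0.716% and 2.24% (EGF with U46619 against EGF). For EGF with AngII this share is not given here. Depth limits Ngfr, at 3 counts or fewer in 3, 4 and 4 of 6 libraries with U46619, with EGF and U46619 and with the 3 substances after 24 h, and Lrrc17, in 1, 2 and 2 of them. Scara5 with the 3 substances and Cd34 with EGF and U46619 were so low in 1 library each.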
